A study of Rattus norvegicus with 20 samples.

Results

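The genes described here move calcium in and out of the cytosol of the cardiac muscle cell at each beat. They were taken by name from a list of 10 genes of cardiac calcium cycling, and 9 of the 10 were matched by gene name among the 30560 genes of the deposited expression table: Ryr2, Casq2, Trdn, Jph2, Hrc, Atp2a2, Sln, Cacna1c and Slc8a1. Pln is not analysed here. The rule itself uses names and no measured value. Messenger RNA was sequenced from the left ventricle and the kidney cortex of 10 male rats, 1 library per organ and animal. 5 rats (RB035 to RB039) received Maresin 1 (MaR1), a lipid mediator made from docosahexaenoic acid, from a subcutaneous osmotic pump at a dose of at most 1.3 µg/kg/day. The other 5 (RB030 to RB034) received vehicle from the same kind of pump. All 10 carried a blood pressure telemeter implanted at 8 weeks of age and ate 4% NaCl for 3 weeks, so no group on a normal diet enters the comparisons. The labels give the genotype as WT, the series title calls the rats hypertensive, and the strain is not named.

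In a heartbeat, the L-type channel of the surface membrane (Cacna1c) lets calcium in, and this calcium opens the ryanodine receptor (Ryr2) of the sarcoplasmic reticulum, the internal calcium store, which releases much more. Relaxation follows when the pump SERCA2 (Atp2a2) returns calcium to the store and the sodium-calcium exchanger (Slc8a1) carries the rest out of the cell. Small membrane peptides such as sarcolipin (Sln), known in rodents mainly from the atria, restrain the pump. In the kidney, the exchanger is known from the distal tubule, where it takes part in calcium reabsorption.

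Values are FPKM, fragment counts corrected for the length of the gene and the depth of the library, so levels can be roughly compared between genes. Sln, at 298 bases, is far shorter than the other members (2594 to 16410 bases). How this bears on its level against theirs was not tested. Libraries held 19383232 to 30342034 fragments assigned to genes. Mitochondrially encoded genes took 23.8% to 33.5% of the assigned fragments in hearts and 11.8% to 15.8% in kidneys. The ventricles differed in the level of an atrial transcript. Myl7, the atrial myosin light chain, had 316, 0.293, 0.163, 151 and 1.05 FPKM in MaR1 hearts RB035 to RB039 and 0.318, 225, 1.65, 784 and 529 FPKM in vehicle hearts RB030 to RB034. 5 hearts, 2 with MaR1 and 3 with vehicle, were thus at or above 100 FPKM, and the other 5 were at or under 1.65 FPKM. The 100 FPKM line was drawn after the values were seen, and the 2 sets of hearts are not groups of the study.

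The promoters of the members are shown first because the contrast between organs is wide. RefSeq windows of 300 bases (250 before and 50 after the gene start, assembly GRCr8) were found for 8 of the 9 genes, all but Sln. The window of Casq2 (chr2:192214306-192214605, plus strand), the gene with the widest contrast among the 8, is the only 1 of the 8 that holds the MEF2 motif, whose match is printed in capitals. MEF2 is a family of muscle transcription factors, and 3.29% of the 33469 windows in the table hold the motif on either strand. The windows of Ryr2 (chr17:63081277-63081576, plus strand) and of Atp2a2 (chr12:39733269-39733568, plus strand) hold no motif in capitals and stand here for the members rich in G and C.
Casq2: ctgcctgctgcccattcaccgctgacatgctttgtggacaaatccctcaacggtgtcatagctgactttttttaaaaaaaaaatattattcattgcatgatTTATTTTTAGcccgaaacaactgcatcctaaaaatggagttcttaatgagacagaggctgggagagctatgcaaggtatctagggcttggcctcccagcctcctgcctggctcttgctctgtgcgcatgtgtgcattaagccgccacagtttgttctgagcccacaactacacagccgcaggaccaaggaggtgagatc
Ryr2: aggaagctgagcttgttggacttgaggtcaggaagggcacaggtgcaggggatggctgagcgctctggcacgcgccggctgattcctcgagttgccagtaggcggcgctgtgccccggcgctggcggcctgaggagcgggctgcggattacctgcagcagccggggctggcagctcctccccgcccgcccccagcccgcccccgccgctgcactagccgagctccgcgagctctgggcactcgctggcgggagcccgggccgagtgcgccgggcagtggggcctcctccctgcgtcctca
Atp2a2: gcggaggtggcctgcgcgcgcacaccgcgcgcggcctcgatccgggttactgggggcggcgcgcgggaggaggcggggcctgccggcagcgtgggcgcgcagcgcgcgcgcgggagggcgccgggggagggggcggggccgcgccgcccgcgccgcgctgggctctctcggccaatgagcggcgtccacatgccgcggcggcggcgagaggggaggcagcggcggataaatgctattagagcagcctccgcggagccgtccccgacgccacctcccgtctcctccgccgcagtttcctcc
G and C made up 47.7% of the Casq2 window, 73% of the Ryr2 window and 79% of the Atp2a2 window, against a median of 51.7% over all windows. The E-box letters CANNTG, read on both strands and not capitalised, were in 6 of the 8 windows and in 72.1% of all windows. CATTCC was in 1 of 8 (Cacna1c) and in 14.2% of all windows. The TATA box letters TATAAA were in 0 of 8 and in 14.2% of all windows. The GATA letters AGATAA were in 0 of 8 and in 11.6% of all windows. The CArG box was in 0 of 8 and in 1.64% of all windows. Each match is a run of letters and not evidence of binding.

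All 9 genes were higher in heart than in kidney cortex. limma with Benjamini-Hochberg adjustment called 84.6% of the 12984 genes tested between the organs, and 41% were called higher in heart, so the count of 9 says little on its own. It says less because 7 of the 9 have a kidney mean under 1 FPKM and passed the filter on low values through their heart level. The lowest heart was above the highest kidney for all 9, as for 27.1% of all genes tested. What sets the members apart from each other is how much of each is left in the kidney.

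Atp2a2 and Slc8a1 were the members measured well in kidney. Atp2a2 averaged 1278 ± 287 FPKM in hearts and 76.6 ± 11.9 FPKM in kidneys (SD, n = 10 each), 16.7-fold higher in heart. Slc8a1 averaged 28.4 ± 4.38 FPKM in hearts and 9.72 ± 3.04 FPKM in kidneys, 2.92-fold higher. Slc8a1 thus had the smallest contrast of the 9, with a log2 difference of 1.55 ± 0.14 (SE; limma adjusted p = 2.66e-09), and Atp2a2 had a log2 difference of 4.03 ± 0.13 (limma adjusted p = 8.06e-17). The exchanger stood at 1.70% to 3.15% of the Atp2a2 level in hearts and at 6.39% to 20.7% of it in kidneys.

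The genes of the release unit were low in kidney, each with a mean under 1 FPKM. Casq2 averaged 373 ± 54.5 FPKM in hearts and 0.195 ± 0.113 FPKM in kidneys (SD, n = 10 each), where it rested on 6 to 34 fragments per library. The fold differences of heart over kidney means were 1914 for Casq2, 1190 for Trdn, 1179 for Hrc, 678 for Ryr2 and 274 for Jph2. Kidney libraries held 1 to 9 fragments of Trdn, 5 to 15 of Hrc, 23 to 133 of Ryr2 and 37 to 127 of Jph2. The folds of Casq2, Trdn and Hrc are thus the less sure ones. Cacna1c, the channel pore, averaged 6.47 ± 1.52 FPKM in hearts and 0.202 ± 0.0713 FPKM in kidneys, 32.0-fold higher. Sln had 0 fragments in all 10 kidneys. Its heart mean was at least 12033-fold higher than the level that 3 fragments over all 10 kidneys would give. That mean rests on the hearts with Myl7: the log2 difference was 8.14 over all hearts and 5.98 over the 5 hearts with Myl7 under 100 FPKM, a set chosen after the values were seen.

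**Figure D1:**
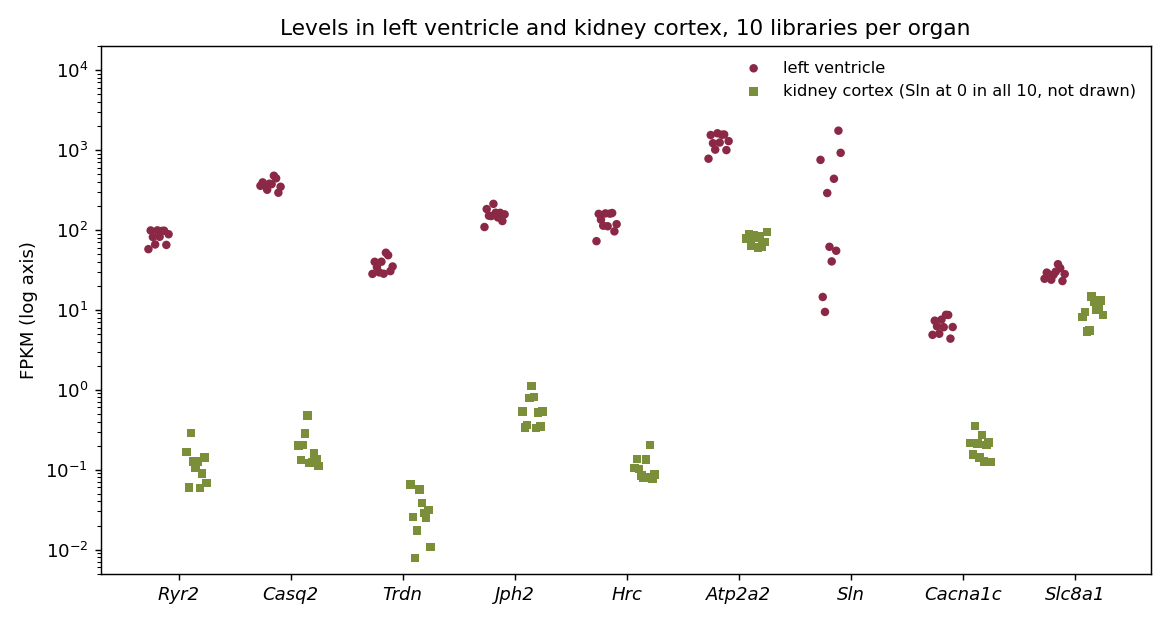
FPKM (log axis) of the 9 calcium cycling genes in 10 left ventricles (circles) and 10 kidney cortices (squares), 1 point per library. Atp2a2 and Slc8a1 are the members above 5 FPKM in every kidney, and Sln spreads from 9.41 to 1742 FPKM among hearts.

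Within the heart the order of levels was nearly fixed. By mean FPKM it ran Atp2a2, Sln, Casq2, Jph2, Hrc, Ryr2, Trdn, Slc8a1 and Cacna1c. Casq2 was above Jph2, Hrc above Ryr2, Ryr2 above Trdn and Slc8a1 above Cacna1c in 10 of 10 hearts. Jph2 was above Hrc and Trdn above Slc8a1 in 9 of 10, so those neighbours are not separated in every animal. Sln had no fixed place, and ranged from place 1 to place 8. Atp2a2 held 29.5% to 62.5% of the summed FPKM of the 9 genes, and Sln held 0.467% to 51.6%.

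The main question of the design is whether MaR1 changed these genes in the left ventricle. limma called 0 of the 9 at adjusted p 0.05, and 0 of 12237 genes in all (0% called). At an unadjusted p under 0.05 it gave 0 of the 9 and 563 of all genes (4.6%). limma voom on the recovered fragments also called none of the 9. The log2 difference was negative for 8 of the 9 and positive for Jph2, with a median of -0.11 against 0.01 over all genes tested. The MaR1 and vehicle ranges overlapped for all 9, where 0.842% of all genes had ranges that did not overlap. In what follows each log2 difference is MaR1 minus vehicle on the log2(FPKM + 0.5) scale with its SE and 95% interval, and the limma adjusted p is 0.99998 for each.

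Ryr2 (ENSRNOG00000017060, chromosome 17, 58389925 to 58975142 in the deposited coordinates) encodes the release channel. It had 57.4, 98.3, 81.3, 65.7 and 98.6 FPKM in MaR1 hearts RB035 to RB039 and 81.9, 96.9, 97.6, 64.8 and 88.2 FPKM in vehicle hearts RB030 to RB034. The low hearts RB035, RB038 and RB033 came from both groups, and the ranges overlapped. MaR1 and vehicle hearts differed by -0.11 ± 0.17 (-0.49 to 0.26) on the log2 scale.

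Casq2 (ENSRNOG00000016243, chromosome 2, 189525960 to 189582267) encodes cardiac calsequestrin, the calcium buffer inside the store. Its values were 356, 393, 358, 317 and 378 FPKM in MaR1 hearts and 373, 476, 442, 291 and 346 FPKM in vehicle hearts, in the same order of animals. The MaR1 hearts all lay inside the vehicle range. On the log2 scale the groups differed by -0.08 ± 0.13 (-0.37 to 0.21).

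Trdn (ENSRNOG00000012609, chromosome 1, 23955651 to 24410595) encodes triadin, which ties calsequestrin to the release channel. MaR1 hearts had 28.1, 39.9, 34.1, 29.4 and 39.9 FPKM, against 28.3, 51.8, 48.2, 30.5 and 34.8 FPKM in vehicle hearts. The 2 highest hearts, RB031 and RB032, were vehicle hearts, yet RB030 was about as low as the lowest MaR1 heart. This gave a log2 difference of -0.15 ± 0.18 (-0.54 to 0.25).

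Jph2 (ENSRNOG00000008170, chromosome 3, 151994778 to 152058904) encodes junctophilin 2, which holds the surface membrane next to the store. It measured 109, 182, 150.3, 149 and 211 FPKM in MaR1 hearts and 164, 143, 163, 129 and 156 FPKM in vehicle hearts. Both the lowest and the highest heart, RB035 and RB039, were MaR1 hearts. MaR1 minus vehicle was 0.06 ± 0.16 (-0.30 to 0.41) in log2 units.

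Hrc (ENSRNOG00000020719, chromosome 1, 95813253 to 95816984) encodes a histidine-rich calcium-binding protein of the store. Levels were 72.2, 158, 134, 113 and 161 FPKM in MaR1 hearts and 111, 159.5, 163, 95.7 and 118 FPKM in vehicle hearts. RB035 lay lowest, and the high values were shared by both groups. In log2 units the difference was -0.04 ± 0.23 (-0.55 to 0.46).

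Atp2a2 (ENSRNOG00000001285, chromosome 12, 34072683 to 34122101), the pump, had 777, 1536, 1213, 1009 and 1614 FPKM in MaR1 hearts and 1238, 1549.5, 1559, 996 and 1288 FPKM in vehicle hearts. MaR1 hearts held both the lowest and the highest value. The fitted log2 difference came to -0.14 ± 0.21 (-0.60 to 0.32).

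Sln (ENSRNOG00000009047, chromosome 8, 54243542 to 54247791), the pump inhibitor, had 751, 14.5, 9.41, 289 and 61.4 FPKM in MaR1 hearts and 40.3, 435, 54.8, 1742 and 919 FPKM in vehicle hearts. Each group held both high and low hearts, and the ranges overlapped. limma put the log2 difference at -1.93 ± 1.39 (-4.98 to 1.13), the widest interval of the 9. With 1 animal left out it ran from -2.77 (without RB035) to -1.21 (without RB037), and it was -2.61 without RB030 and -1.26 without RB033.

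Cacna1c (ENSRNOG00000007090, chromosome 4, 151764138 to 152379648) encodes the pore of the L-type channel. It had 4.86, 7.31, 6.21, 5.01 and 7.54 FPKM in MaR1 hearts and 6.06, 8.65, 8.61, 4.36 and 6.09 FPKM in vehicle hearts. The highest 2 and the lowest heart were vehicle hearts. MaR1 and vehicle hearts differed by -0.10 ± 0.19 (-0.51 to 0.31) on the log2 scale.

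Slc8a1 (ENSRNOG00000008479, chromosome 6, 13194662 to 13535628), the exchanger, had 24.4, 29.2, 27.7, 23.8 and 27.4 FPKM in MaR1 hearts and 30.0, 37.2, 33.2, 22.9 and 28.0 FPKM in vehicle hearts. 3 vehicle hearts were above every MaR1 heart and 1 was below all of them. On the log2 scale the groups differed by -0.17 ± 0.12 (-0.44 to 0.09), with the smallest unadjusted p of the 9 (limma, 0.179).

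**Figure D2:**
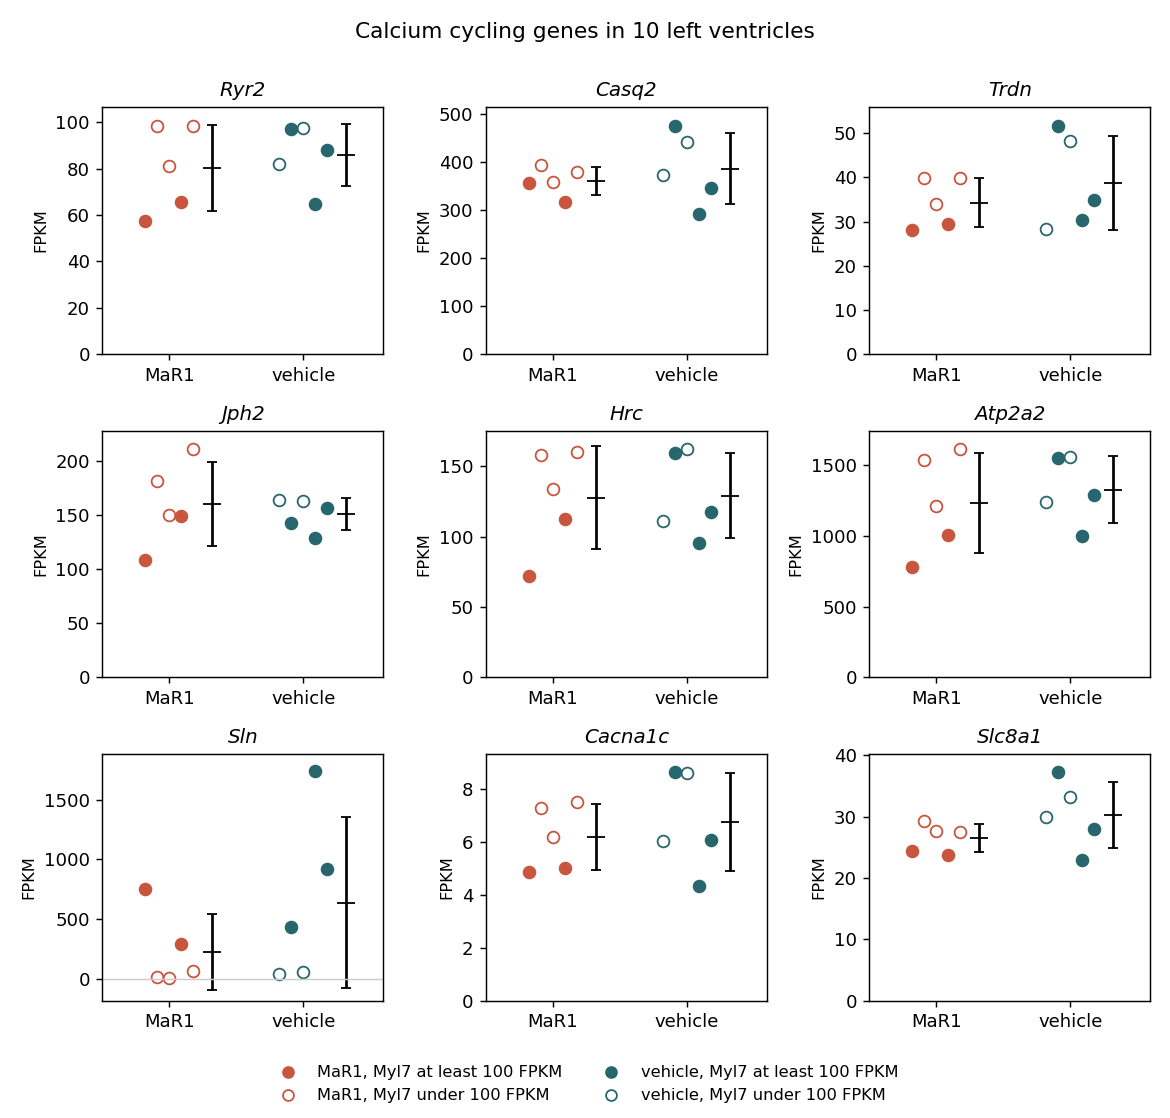
FPKM of the 9 genes in 5 MaR1 hearts (left of each panel) and 5 vehicle hearts (right), 1 point per heart. Filled points are hearts with Myl7 at or above 100 FPKM, open points the others, and bars give mean ± SD (n = 5). The groups overlap in every panel, and in the Sln panel the filled points lie above the open ones.

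Sln was high in the hearts where Myl7 was high. In the 5 hearts with Myl7 at or above 100 FPKM, Sln had 289 to 1742 FPKM. In the other 5 it had 9.41 to 61.4 FPKM, with no overlap. Of all genes with a mean of at least 1 FPKM in hearts, Myl7 aside, 2.3% were likewise higher with no overlap. Sln per Myl7 was 1.74 to 2.37 in the first set and 33.1 to 127 in the second. In the second set Myl7 rested on 6 to 61 fragments per library, so those ratios are unsure. Relative to the pump, Sln stood at 28.1% to 175% of the Atp2a2 level in the first set and at 0.776% to 3.80% in the second. The hearts fall into separate clusters of Myl7 (the largest gap takes 60.1% of the log2 range), so no correlation over all 10 is given, and the relation carries no test.

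**Figure D3:**
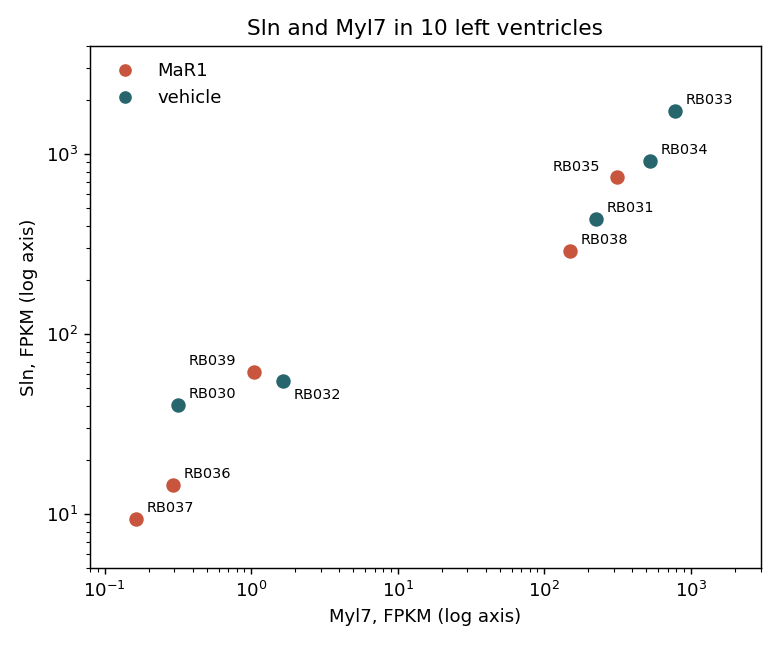
Sln against Myl7 in 10 left ventricles, both FPKM on log axes, with MaR1 and vehicle hearts in different colours and the animal number beside each point. The 5 hearts at upper right have Myl7 of 151 to 784 FPKM and the 5 at lower left 0.163 to 1.65 FPKM, and both clusters hold both treatments.

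Other atrial markers moved with Myl7 in part. The 11 genes of the atrial list other than Myl7 summed to 2931 to 8376 FPKM in the hearts with Myl7 at or above 100 FPKM and to 877 to 3709 FPKM in the others. 4 of the 11 were higher with no overlap between the sets, as were 2.3% of all genes with a mean of at least 1 FPKM in hearts. Among the 4 was Myl4, the atrial essential light chain, with 177 to 858 FPKM against 2.19 to 4.95 FPKM. Nppa, the atrial natriuretic peptide gene, did overlap, as did Bmp10, Nr2f1, Kcna5, Kcnj3, Tbx5 and Clu. Nppa alone had 2025 to 6698 FPKM against 302 to 3022 FPKM. It thus weighs heavily in the sum, which does not stand for the 11 genes evenly. Kcna5 lay lower in the set with Myl7 at or above 100 FPKM, at 2.43 to 4.87 FPKM against 3.80 to 5.49 FPKM. Kcnj3 had 8.68 to 17.7 FPKM against 8.84 to 14.2 FPKM, and Clu 481 to 669 FPKM against 419 to 624 FPKM. By treatment the same sum was 877 to 5069 FPKM in MaR1 hearts and 978 to 8376 FPKM in vehicle hearts. With Myl7 as a covariate the Sln difference between treatments was -0.61 on the log2 scale (limma, unadjusted p = 0.135, adjusted p = 0.730), against -1.93 without it. The other members went the other way, each more negative with the covariate than without it. They ran from -0.04 for Jph2 (0.06 without it) to -0.26 for Atp2a2 (-0.14 without it), and none was called. Bulk RNA cannot tell fewer cells of a type from less RNA per cell.

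The other 8 genes had lower medians where Myl7 was high. Each had a lower median in the hearts with Myl7 at or above 100 FPKM, at 0.657 (Atp2a2) to 0.915 (Casq2) of the median of the others, and each overlapped between the sets. The share of all genes with a lower median was not computed, so this is not read as a trait of these genes. RB031, with Myl7 at 225 FPKM, was the highest of all hearts for Casq2, Trdn, Cacna1c and Slc8a1. RB033, RB035 and RB038 were the 3 lowest hearts for Ryr2, Atp2a2, Cacna1c and Slc8a1, and at least 2 of them were among the 3 lowest for each of the 8. These 3 hearts also had the lowest mitochondrial shares, 23.8%, 25.0% and 23.9%. The fibroblast markers summed to 961 to 1985 FPKM in the set with Myl7 and to 683 to 892 FPKM in the other. The ventricular muscle cell markers summed to 3208 to 5354 FPKM and 5126 to 5558 FPKM, with overlap. Adipocyte markers summed to 0.927 to 32.2 FPKM and 0.225 to 0.979 FPKM, also with overlap. The part of these cell types in the lower levels was not tested.

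**Figure D4:**
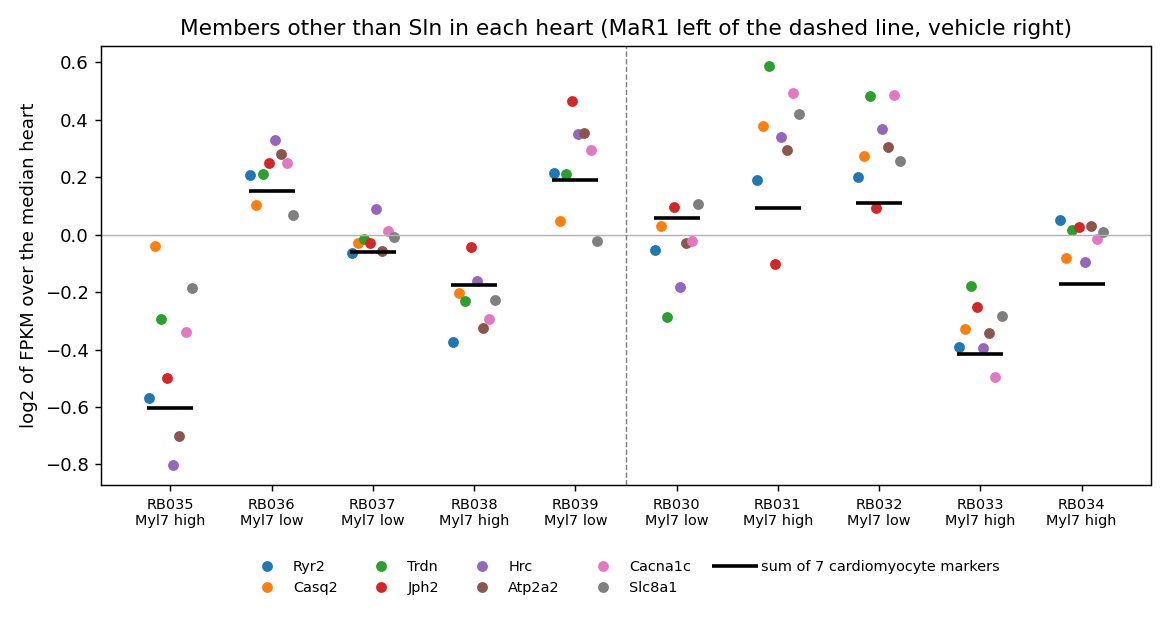
log2 of each gene's FPKM over its median heart, for the 8 genes other than Sln, in 5 MaR1 hearts (left of the dashed line) and 5 vehicle hearts (right). Black bars give the summed cardiomyocyte markers on the same scale, Myl7 high means at or above 100 FPKM, and RB035, RB038 and RB033 lie below 0 for all 8 genes.

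The spread between hearts was also taken relative to other muscle cell genes. 7 cardiomyocyte markers outside the members summed to 10645, 17930, 15505, 14321 and 18423 FPKM in MaR1 hearts and to 16812, 17215, 17441, 12127 and 14328 FPKM in vehicle hearts. The highest heart was 1.63 to 2.25 times the lowest for the 8 genes, and 1.28 to 1.79 times after division by this sum, smaller for 8 of 8. The change was small for Trdn (1.84 to 1.79) and Slc8a1 (1.63 to 1.54). The share of all genes with a smaller spread after division was not computed. For Atp2a2 the ratio was 1.28 after division and 2.08 before. For Casq2 it was 1.629 after and 1.632 before, so it hardly changed. As a percentage of this sum, the 2 Myl7 sets overlapped for each of the 8 genes. Casq2 stood at 2.22% to 3.34% with Myl7 at or above 100 FPKM and at 2.05% to 2.53% in the other hearts. Slc8a1 stood at 0.166% to 0.230% and 0.149% to 0.190%, and Jph2 at 0.830% to 1.09% and 0.936% to 1.15%. RB033, RB035 and RB038 were then no longer together the 3 lowest hearts for Ryr2, Atp2a2, Cacna1c or Slc8a1. RB038 stayed among the 3 lowest for each of these genes, with RB035 for Atp2a2 and RB033 for Cacna1c. It was also among the 3 lowest for Casq2, Trdn and Hrc (with RB035 for Hrc), but not for Jph2.

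Within the sets of hearts the treatment was again not called for any of the 9 genes. limma called 0 genes over all in either set, so this says nothing particular about the 9. In the 5 hearts with Myl7 under 100 FPKM (3 MaR1, 2 vehicle) the log2 difference was 0.05 for Ryr2, 0.06 for Atp2a2, 0.16 for Hrc and -1.18 for Sln. In the 5 hearts at or above 100 FPKM (2 MaR1, 3 vehicle) it was -0.42 for Ryr2, -0.51 for Atp2a2, -0.43 for Hrc and -0.93 for Sln. Jph2 was 0.13 in the set under 100 FPKM and -0.16 in the other, and Trdn was 0.04 and -0.40. The sign thus differed between the sets for 5 of the 9, a difference that was not tested, and 4 (Casq2, Sln, Cacna1c and Slc8a1) were negative in both.

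In the kidney cortex 2 members reached a mean of 1 FPKM and were tested. limma called neither, and 0 of 12446 genes (0% called). At an unadjusted p under 0.05 it gave 0 of the 2 and 840 of all genes (6.75%), and limma voom called neither as well. Atp2a2 had 78.2, 87.6, 63.7, 86.5 and 78.8 FPKM in MaR1 kidneys RB035 to RB039 and 60.3, 83.6, 62.1, 70.6 and 94.3 FPKM in vehicle kidneys RB030 to RB034. The groups overlapped, with a log2 difference of 0.10 ± 0.14 (SE; limma adjusted p = 0.924).

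Slc8a1 was the member with the wider gap in kidney. It had 8.13, 9.41, 5.32, 5.52 and 14.6 FPKM in MaR1 kidneys and 12.4, 10.01, 10.1, 13.0 and 8.61 FPKM in vehicle kidneys. 3 MaR1 kidneys were below every vehicle kidney, and RB039 was above them all. RB039 also had the highest Adipoq, a fat cell gene, at 119.9 FPKM (2.77 to 13.2 FPKM in the other 9 kidneys), and the highest Upk1a, a urothelial marker, at 23.8 FPKM (0.123 to 10.99 FPKM). Their part in its Slc8a1 level was not tested. Neither member had ranges that did not overlap, as 1.23% of all genes had. This gave a log2 difference of -0.39 ± 0.24 (95% -0.92 to 0.13; limma adjusted p = 0.807). Without RB039 it was -0.60 (limma, unadjusted p = 0.00678 against 0.129 with all kidneys, adjusted p = 0.162). In that fit 1757 of all genes had an unadjusted p under 0.05, against 840 with all kidneys. In the 6 kidneys with Upk1a under 1 FPKM (2 MaR1, 4 vehicle) it was -0.74 (limma, unadjusted p = 0.00457, adjusted p = 0.25). There 1213 of all genes had an unadjusted p under 0.05. This set of kidneys was chosen after the values were seen.

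Slc8a1 moved with the distal tubule markers. 5 matched markers of the distal convoluted and connecting tubule, such as the thiazide-sensitive cotransporter Slc12a3, summed to 155, 187, 103, 91.6 and 298 FPKM in MaR1 kidneys and to 218, 206, 243, 227 and 174 FPKM in vehicle kidneys. RB037 and RB038 were lowest and RB039 highest for both measures. Slc8a1 stood at 4.91% to 6.03% of the sum in MaR1 kidneys and at 4.15% to 5.73% in vehicle kidneys. Whether the share of this segment in the tissue sets the Slc8a1 level was not tested.

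**Figure D5:**
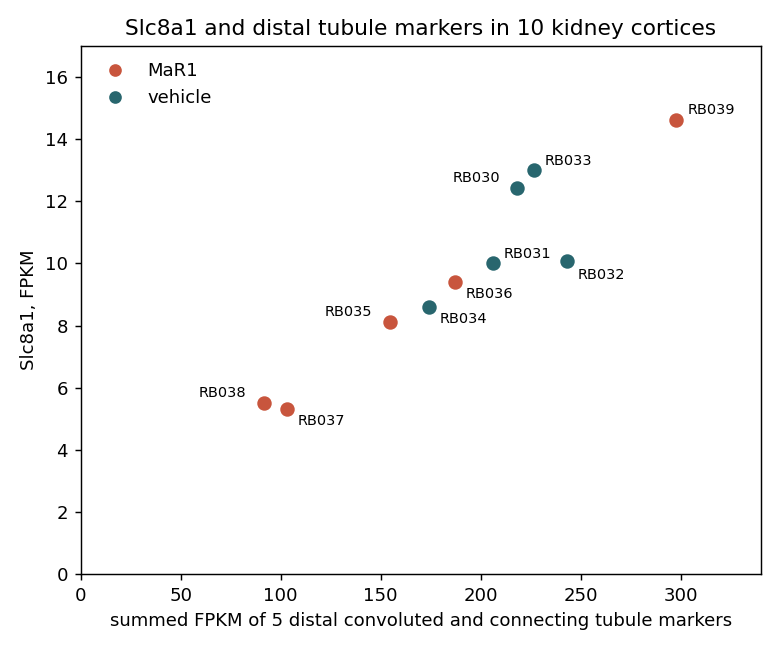
Slc8a1 (FPKM) against the summed FPKM of 5 distal tubule markers in 5 MaR1 and 5 vehicle kidney cortices, with the animal number beside each point. The kidneys run from RB038 and RB037 at lower left to RB039 at upper right.

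Whether the response to MaR1 differed between organs was tested as heart response minus kidney response. limma called 0 of the 9 and 0 of 12984 genes (0% called), with 0 of the 9 and 714 of all genes (5.5%) at an unadjusted p under 0.05. limma voom called none of the 9. 7 of the 9 have a kidney mean under 1 FPKM and entered through their heart level, so for them the count says little about a difference between organs. For Sln, at 0 in every kidney, the value is its heart difference. Casq2 had the smallest p, at -0.33 ± 0.17 on the log2 scale (95% -0.68 to 0.02; limma adjusted p = 0.917). In kidney Casq2 averaged 0.259 ± 0.133 FPKM with MaR1 and 0.131 ± 0.0187 FPKM with vehicle (SD, n = 5 each), on the few fragments given above. The Casq2 value depended on the handling of such low levels: it was -0.23 with a pseudocount of 1, -0.65 with 0.1 (unadjusted p = 0.0168) and -0.93 with voom (unadjusted p = 0.0483). The limma adjusted p for these was 0.971, 0.823 and 0.999. Slc8a1 had the positive difference, 0.22 ± 0.28 (limma adjusted p = 0.990).

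Of 66 other genes of calcium handling listed by role, 58 were matched. In heart 50 were tested, 27 with a positive and 23 with a negative difference (median 0.01), and 0 were called (limma), 0 at an unadjusted p under 0.05. The medians of the single lists ran from -0.05 for the partners of the surface channel to 0.19 for the 3 inositol trisphosphate receptors. The smallest p in heart belonged to Ahnak, a scaffold of the L-type channel, with 58.2 ± 3.42 FPKM in MaR1 hearts and 52.3 ± 5.06 FPKM in vehicle hearts (SD, n = 5 each). Stim1, the store calcium sensor, and Atp2a3, a relative of the pump, came next, with log2 differences of 0.22 ± 0.12 and 0.20 ± 0.11. The limma adjusted p was 0.99998 for the 3.

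In kidney 34 of these genes were tested and limma called 0. 4 (11.8%) had an unadjusted p under 0.05, against 6.75% of all genes tested in kidney. Orai1, the store-operated entry channel, had 18.2 ± 1.12 FPKM in MaR1 kidneys and 21.5 ± 1.65 FPKM in vehicle kidneys (SD, n = 5 each; limma adjusted p = 0.621). Ppp1cb, a catalytic subunit of protein phosphatase 1, had 19.1 ± 0.903 FPKM with MaR1 and 16.4 ± 1.14 FPKM with vehicle (limma adjusted p = 0.621). Bin1, which shapes the membrane tubules of muscle cells, had 10.5 ± 1.94 FPKM with MaR1 and 13.0 ± 0.609 FPKM with vehicle (limma adjusted p = 0.663). The fourth was Ppp1r1a, an inhibitor of protein phosphatase 1, with 74.5 ± 28.8 FPKM with MaR1 and 45.1 ± 13.9 FPKM with vehicle (limma adjusted p = 0.721). Ppp1r1a fell outside the rule for named genes, which took 3 per organ, and was named after its value was seen.

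Several members have paralogues in the same tissues. Casq1, the skeletal muscle calsequestrin, averaged 22.8 FPKM in hearts and 7.88 FPKM in kidneys, above the Casq2 level in kidney given above. Slc8a2 had 2.68 FPKM in hearts and 2.92 FPKM in kidneys. Slc8b1, the mitochondrial exchanger, had 4.85 FPKM in hearts and 5.06 FPKM in kidneys. The T-type channels Cacna1g and Cacna1h had 3.82 and 2.54 FPKM in hearts and 0.314 and 0.274 FPKM in kidneys.

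The genes whose pattern over the 10 hearts was most like that of Sln were Mybphl, Sbk3, Rab15, Sbk2 and Msln, by the root mean square difference of centred log2 values, 0.894 to 1.22. Mybphl ran from 0 to 62.4 FPKM among hearts. Those most like Atp2a2 were Fam210a, Lpin1, Kcnj11, Pdk2 and Rtn2, with 0.0512 to 0.0719. Those most like Hrc were Acat1, Dhrs11, Acsl1, Slc2a4 and Perm1, with 0.0502 to 0.0669.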

How the data were processed

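The authors deposited 1 table of FPKM for 30560 genes in 20 libraries. Per the submitters' processing notes, fastp, HISAT2 2.0.5, StringTie 1.3.3b and featureCounts 1.5.0-p3 were used. Build and strandedness are not given in the sources used here. Reads of overlapping antisense genes may be mixed. Multiplied by gene length, 100% of 371175 values above 0 were whole fragments within 0.01. No library was a copy of another (smallest chi-square per degree of freedom 10.1).

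log2(FPKM + 0.5) was fitted with limma 3.58.1 in R 4.3.3 (variance trend, two-sided, Benjamini-Hochberg over all genes with a mean of at least 1 FPKM). The pseudocount understates changes of genes at low level. Each organ was fitted alone, and the interaction and organ difference on all 20 libraries. Steps were tested on simulated data. Heart and kidney with the same number come from the same animal. Their deviations from group means correlated at -0.00947 to 0.179 over 10987 genes, and the animal block (statmod 1.5.0) was an alternative. Replicates are separate animals.

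The members, the gene lists and the tests were chosen with earlier results of these data known. Members are all named. Of other calcium genes the 3 of smallest p per organ and paralogues with at least 1 FPKM were named, and Ppp1r1a was added after its value was seen. Figures used matplotlib 3.10.9 in Python 3.11.15.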

Additional observations from a re-analysis of the deposited data

How the results depend on the processing

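No call on a member changed where it was tested under the alternatives that were run: pseudocounts of 0.1 and 1, no filter, a mean of at least 5 FPKM, quantile and median-of-ratios scaling, limma voom, the animal as replicate block, Myl7 as covariate, vehicle animals only, each animal left out, and the sets of hearts or kidneys chosen after seeing the data. Cacna1c was not tested between organs or for the interaction at a mean of at least 5 FPKM, which left 8 of 9 called between organs. The planned edgeR fit was not run, because the deposited unit is FPKM.

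Over all genes, the kidney comparison gave 6 calls with the animal as replicate block (0 without it) and 0 to 1 with an animal left out. The block changed no call on a member, and heart over kidney gave 11041 calls with it. The interaction gave 1 call with a pseudocount of 0.1 and 0 to 3 with an animal left out. The heart gave 0 throughout. Heart over kidney gave 7292 calls at a mean of at least 5 FPKM, since fewer genes were tested, against 10983, and 10807 to 10949 with an animal left out. The largest gap among hearts was 60.1% of the log2 range of Myl7 and 30.4% for the summed other atrial markers, where Nppa weighs heavily. The cause was not tested.

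Uncalled differences of members turned sign 12 times over the alternatives other than leaving an animal out, counted per gene, comparison and setting. They turned 11 times more with an animal left out. In heart, Jph2 was -0.0019 with quantile scaling, -0.044 with Myl7 as covariate and -0.16 in hearts with Myl7 at or above 100 FPKM. In hearts with Myl7 under 100 FPKM, Ryr2 was 0.046, Trdn 0.036, Hrc 0.16 and Atp2a2 0.055. For the interaction, Trdn was 0.016 and Hrc 0.20 in that set, and Hrc was 0.036 with a pseudocount of 0.1, 0.00055 with quantile scaling and 0.067 with voom. With an animal left out, heart differences spanned -0.25 to 0.012 for Atp2a2, -0.18 to 0.0014 for Casq2, -0.14 to 0.15 for Hrc and -0.053 to 0.19 for Jph2. They kept their sign at -2.77 to -1.21 for Sln, -0.21 to -0.0028 for Ryr2, -0.23 to -0.0045 for Cacna1c, -0.25 to -0.032 for Trdn and -0.27 to -0.095 for Slc8a1 (lowest unadjusted p 0.0227). Interactions spanned -0.12 to 0.18 for Hrc and -0.23 to 0.031 for Jph2.

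With 5 animals per group, the half-width of the 95% interval in heart was 0.27 for Slc8a1 and 3.05 for Sln on the log2 scale. 7 members have a kidney mean under 1 FPKM, and Casq2, Trdn, Hrc and Sln have at most 34 fragments in any kidney library.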
